A study of Mus musculus with 2 samples.

Results

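Cluster 18 was the haemoglobin-rich group among the 29 clusters that the depositors had numbered, without names, in single-cell RNA data from mouse incisor. Its members were all cells with cluster number 18 in the deposited cell annotation, 431 of 23528 cells, of which 172 came from the Memo1-mutant library and 259 from the control library. The Memo1-mutant mouse carried Memo1;K14CRE, in which Cre recombinase is driven by the keratin 14 promoter of epithelium, and the control mouse was labelled only as control. Both were at postnatal day 20, and each library came from the cervical loop region of 1 mouse, epithelium and mesenchyme together, digested to single cells and sequenced from the 3' end on the 10x Genomics droplet platform. With 1 library per group there was no replicate and no test: "higher" and "lower" compare these libraries. Intervals are at the 95% level and hold only the error of counting molecules. Whether the Cre acted in the erythroid cells of the mutant mouse was not tested.

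Red blood cells mature in the marrow and spleen through stages that fill with haemoglobin, expel the nucleus and enter the blood as reticulocytes, which still hold messenger RNA and lose it together with their mitochondria and ribosomes. Adult mouse haemoglobin joins alpha chains, from Hba-a1 and Hba-a2, with beta chains, from Hbb-bs and Hbb-bt in mice with the single beta haplotype, around haem made by a pathway that starts with Alas2. In solid tissue such cells are commonly met where vessels or marrow are taken along.

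The 4 haemoglobin genes set the cluster apart, so the 250 bases before their RefSeq start sites are shown on the strand of the gene, with those of Alas2, the erythroid enzyme that starts haem synthesis. In GRCm38.p6 they are chr11:32283422-32283671 (plus strand) for Hba-a1, chr7:103827929-103828178 (minus strand) for Hbb-bs, chr7:103813924-103814173 (minus strand) for Hbb-bt and chrX:150547167-150547416 (plus strand) for Alas2. Capitals mark 4 groups of short motifs searched on both strands. The GATA forms were AGATAA and, differing from it in an outer base, TGATAA, with the further spellings AGATAG as well as TGATAG. The second motif was CACCC, bound by factors of the Klf family, and the next was CCAAT, a common element of promoters. The TATA forms were TATAAA, the usual one, with the variant TATAAG. The genes themselves, from GENCODE M21 on the same build, lie at chr11:32283511-32284465 (Hba-a1) and chr11:32296489-32297298 (Hba-a2), plus strand, and the beta genes at chr7:103826534-103828096 (Hbb-bs) and chr7:103812524-103813996 (Hbb-bt), minus strand, while Alas2 lies at chrX:150547375-150570638, plus strand. GENCODE starts the models at other bases than RefSeq.
Hba-a1: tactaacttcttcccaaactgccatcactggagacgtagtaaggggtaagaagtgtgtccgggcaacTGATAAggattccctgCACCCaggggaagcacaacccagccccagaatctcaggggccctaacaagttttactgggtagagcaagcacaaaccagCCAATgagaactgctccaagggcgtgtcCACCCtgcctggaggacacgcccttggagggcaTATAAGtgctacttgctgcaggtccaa
Hbb-bs: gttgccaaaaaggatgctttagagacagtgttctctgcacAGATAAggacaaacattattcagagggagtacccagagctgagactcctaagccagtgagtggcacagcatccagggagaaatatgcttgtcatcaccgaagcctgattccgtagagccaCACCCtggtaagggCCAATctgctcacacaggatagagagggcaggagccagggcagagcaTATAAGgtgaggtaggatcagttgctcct
Hbb-bt: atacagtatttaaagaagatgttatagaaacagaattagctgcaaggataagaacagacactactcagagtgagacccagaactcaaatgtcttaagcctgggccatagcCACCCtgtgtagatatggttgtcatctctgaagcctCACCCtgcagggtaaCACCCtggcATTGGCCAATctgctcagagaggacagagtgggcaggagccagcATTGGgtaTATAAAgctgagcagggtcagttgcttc
Alas2: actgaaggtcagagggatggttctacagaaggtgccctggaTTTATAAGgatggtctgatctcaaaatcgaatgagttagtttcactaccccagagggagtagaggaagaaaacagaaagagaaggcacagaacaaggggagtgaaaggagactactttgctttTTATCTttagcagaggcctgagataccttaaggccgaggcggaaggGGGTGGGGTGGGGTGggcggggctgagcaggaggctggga
Hba-a2 is not printed because its stretch had 0 mismatches to that of Hba-a1 over 247 aligned bases, whereas Hbb-bs and Hbb-bt were 73.3% identical over 243 aligned bases. Hba-a1 and Hbb-bs held all 4 motif groups. Hbb-bt held none of the GATA forms searched and had CCAAT on both strands, with 2 matches side by side. Alas2 held no CCAAT, had its CACCC on the minus strand in 3 adjoining matches, and had 2 TATA forms that overlap on opposite strands. Among 32851 RefSeq promoters of the same length, 26.5% held a GATA form, 52.0% CACCC, 33.9% CCAAT and 17.02% a TATA form. These matches are a description of letters and say nothing of binding.

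Haemoglobin made up most of the RNA of the cluster in both libraries. Its transcripts took 1539891 of 1727149 UMIs (89.2%) in Memo1-mutant cells and 2207264 of 2493295 UMIs (88.5%) in control cells, where a UMI is 1 counted molecule. In single cells the share ran from 39.9% to 97.0% with a median of 92.8% in the Memo1-mutant library, and from 18.1% to 96.4% with a median of 92.1% in the control library. The libraries overlapped over most of this range, the lowest shares being in control cells, and 0 cells lay under 10%. The cluster held 86.9% of all haemoglobin counts of the Memo1-mutant library and 91.3% of those of the control library. Every member had haemoglobin UMIs, at least 261 in Memo1-mutant and 105 in control members. In endothelial-like cluster 9, whose medians of 871 and 966 UMIs per cell are near the non-haemoglobin depth of the members, 40.9% of Memo1-mutant and 60.5% of control cells had at least 1, and the median cell had 0 and 1.

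The 4 genes kept nearly the same proportions in both libraries. Hbb-bs, the beta gene with more counts, took 47.1% of the UMIs of Memo1-mutant and 47.7% of those of control members. Hba-a1 took 19.96% in Memo1-mutant and 19.2% in control members, and Hba-a2 13.9% and 13.6%. Hbb-bt, the beta gene with fewer counts, took 8.23% in Memo1-mutant and 8.005% in control members. Ratios of Memo1-mutant to control, on counts scaled to the total of all counts, lay between 0.986 (0.983 to 0.988) for Hbb-bs and 1.04 (1.04 to 1.05) for Hba-a1. There were 0.613 alpha counts for each beta count in Memo1-mutant members and 0.588 in control members. The last 300 transcript bases of Hba-a1 and Hba-a2 had 1 mismatch in 284 aligned bases, so how counts were split between these copies is uncertain. Hbb-bs and Hbb-bt differed at 37 of 297 aligned bases there.

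**Figure D1:**
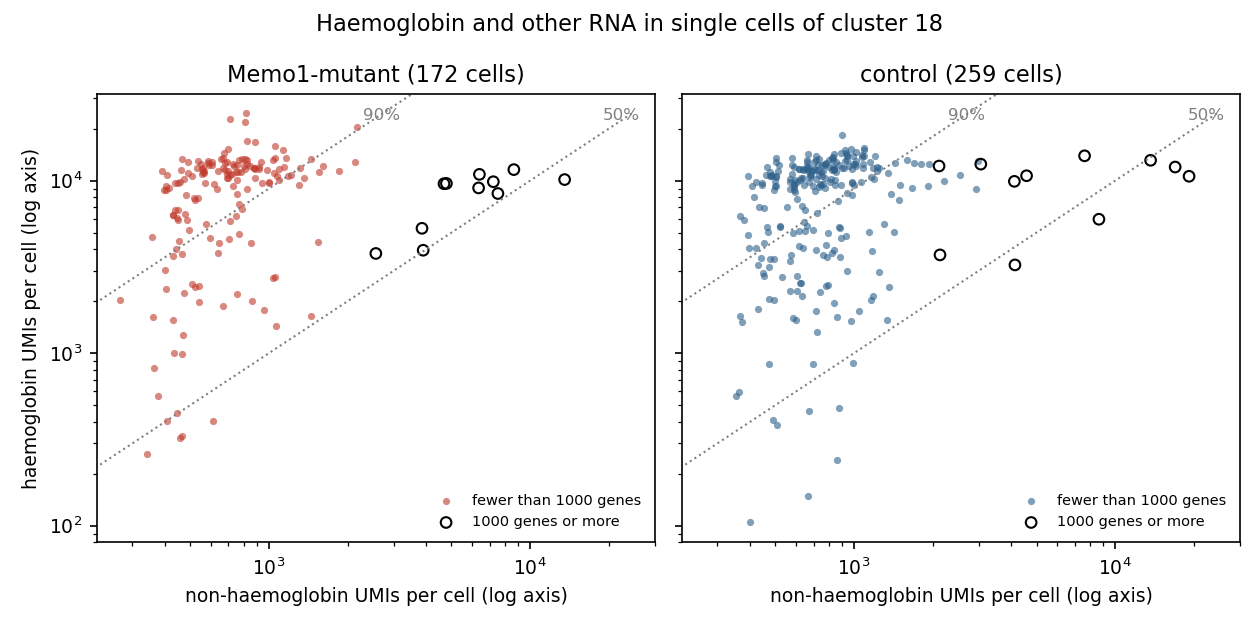
Haemoglobin UMIs (y) against all other UMIs (x) of each cell of cluster 18, Memo1-mutant left and control right, both axes logarithmic; dotted lines mark haemoglobin shares of 50% and 90%, and open circles the cells with at least 1000 genes. Most cells form a cloud around medians of 10126.5 haemoglobin and 693.5 other UMIs in the Memo1-mutant and 9842 and 737 in the control library, with a tail to low haemoglobin and 11 many-gene cells in each library at the right.

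Cluster 18 was 1.24% (1.07 to 1.44) of Memo1-mutant cells and 2.67% (2.36 to 3.01) of control cells. Its 10 leading genes had ratios between the libraries within 0.785 and 1.43, as had the first 20, and 0 of them had an interval wholly past 2-fold. It is a share of captured cells with 1 value per mouse, and what sets it was not tested. The deposited cells all had at least 200 genes and 501 UMIs, and this limit passed close to the members: 34.3% of Memo1-mutant and 36.3% of control members had 250 genes or fewer. There were 16 Memo1-mutant and 23 control members between 200 and 210 genes. Cells with fewer genes are not analysed here. The members had medians of 293 genes in the Memo1-mutant and 290 in the control library, against 2421 and 941.5 over all cells of those libraries. Of 139 barcodes that occurred in both libraries, 1 belonged to a control member and 0 to a Memo1-mutant member.

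Outside haemoglobin the cells held little RNA. The median cell had 11224.5 UMIs in the Memo1-mutant and 10660 in the control library, of which 693.5 and 737 were not haemoglobin. The range of non-haemoglobin UMIs was wide, from 270 to 13559 in Memo1-mutant members and from 353 to 19191 in control members. Per cell, haemoglobin UMIs had a median of 10126.5 in Memo1-mutant and 9842 in control members, while that of the 13 measured genes of the mitochondrial genome was 119 and 167. The mitochondrial part of the non-haemoglobin counts was 17.1% in Memo1-mutant members and 20.9% in control members, against 7.67% and 8.35% over all cells of the libraries. In cluster 9 this part was 10.3% in Memo1-mutant and 12.8% in control cells, with medians of 108 and 138 mitochondrial UMIs per cell. Because haemoglobin fills these cells, levels of all other genes are given below as counts scaled to 1000000 non-haemoglobin counts (CPM), unless stated otherwise.

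The genes that stood farthest above the other cells were haemoglobin and genes of late erythroid cells. After the 4 haemoglobin genes, the 20 leading genes included, in order, Alas2, Bpgm, Ube2l6, Isg20, Mkrn1, Fam46c, Rec114, Fam220a, Apol11b, Slc25a37, Fech, Epb41, Rsad2 and Fam213a. In CPM of all counts, haemoglobin included, Alas2 was at 1191 in Memo1-mutant and 1578 in control members, against 2.59 and 3.83 in the remaining cells of those libraries. The next highest cluster for Alas2 was cluster 26 in the Memo1-mutant library, at 42.9, and cluster 23 in the control library, at 60.6. For Rsad2, an interferon-induced gene, endothelial-like cluster 8 was close to cluster 18, which was at 75.3 against 79.5 in the Memo1-mutant library and at 101 against 80.4 in the control library. Fam213a was no higher in cluster 18 than in cluster 12, at 130 against 168 in the Memo1-mutant and at 111 against 116 in the control library. The clusters were drawn from the expression of these same cells, so these levels describe the cluster and test nothing.

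**Figure D2:**
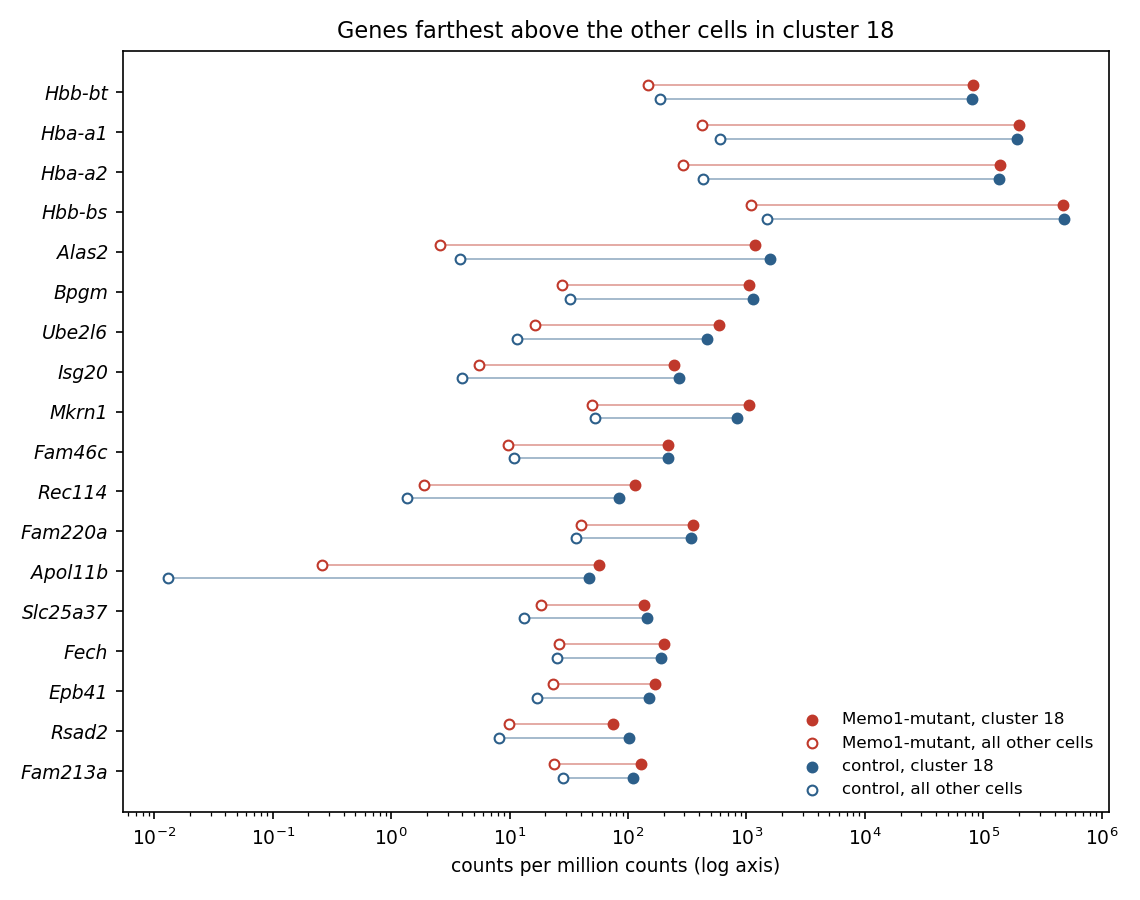
CPM of all counts (x, logarithmic) for leading genes of cluster 18 (y), with Memo1-mutant above control in each row; filled points are cluster 18 and open points all other cells of the library. In both libraries each filled point lies to the right of its open point, Alas2 at 1191 and 1578 against 2.59 and 3.83.

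Further erythroid markers were counted in the members. Alas2 had a UMI in 90.1% of Memo1-mutant and 91.1% of control members, against 0.215% and 1.15% of the cells of cluster 9. Bpgm, the enzyme that makes the regulator of oxygen release, had one in 75.6% of Memo1-mutant and 76.4% of control members. In cluster 9 that share was 2.58% and 3.15%. Slc4a1, the anion exchanger of the membrane, was sparse, with 42 counts in Memo1-mutant and 92 in control members. Epb42 had 5 and 12 counts and Hemgn 7 and 11. The defining nuclear factors were at or near 0, with 1 Gata1 count in Memo1-mutant and 0 in control members, and 1 Klf1 count in each library. Ahsp was not analysed here. The cells were thus erythroid-like by haemoglobin, Alas2 and Bpgm, and not by the transcription factors that drive the early stages. Haemoglobin, Alas2 and Bpgm are themselves leading genes of the cluster, so they describe it and do not test its name. Of the markers not among the leading genes, Slc4a1, Epb42 and Hemgn were sparse.

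Haem synthesis was dominated by its first enzyme. Alas2 had 2057 counts (10985 CPM) in Memo1-mutant members and 3934 (13754 CPM) in control members, a ratio of Memo1-mutant to control of 0.799 (0.757 to 0.843). Fech, which inserts the iron, had 349 counts in Memo1-mutant and 472 in control members, a ratio of 1.13 (0.981 to 1.30). The enzymes between them were scarce: Alad had 2 and 8 counts, Cpox 9 and 9, Uros 3 and 4, and Urod 21 and 30. Of the 12 genes of the list 5 reached the 20 counts over both libraries that were asked of every gene compared. Of those, 0 were at least 2-fold higher in the Memo1-mutant library and 1 was at least 2-fold lower. Over all 2445 genes with 20 counts, 7.98% were at least 2-fold higher and 4.66% at least 2-fold lower, so 1 of 5 is too few to read. The median log2 ratio of the list was 0.10, beside 0.08 over all genes (quartiles -0.27 and 0.50).

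Most iron genes had ratios near 1. Ftl1 and Fth1, the ferritin subunits that store iron, had 2307 and 1263 counts in Memo1-mutant members and 3292 and 1767 in control members. Their ratios were 1.07 (1.01 to 1.13) and 1.09 (1.01 to 1.17). Slc25a37, the mitochondrial iron carrier of erythroid cells, had 236 counts in Memo1-mutant and 361 in control members, a ratio of 0.999 (0.844 to 1.18). Tfrc, the transferrin receptor that young erythroid cells carry in large amounts, had 7 and 17 counts. Glrx5, a glutaredoxin of iron-sulphur cluster assembly, was the highest of the list in ratio, with 178 and 162 counts and 1.68 (1.35 to 2.09). Of 7 measured members 0 were past 2-fold in either direction, and the median log2 ratio was 0.10.

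Membrane and skeleton genes fell into a few well-detected members and many near 0. Epb41, protein 4.1 of the skeleton, had 292 counts in Memo1-mutant and 375 in control members, a ratio of 1.19 (1.02 to 1.39). It had a UMI in 69.8% of Memo1-mutant and 59.1% of control members, whereas Slc4a1 had one in 16.3% and 16.6%. Of 8 measured members 0 were at least 2-fold higher and 2 at least 2-fold lower in the Memo1-mutant library, with a median log2 ratio of -0.15. The first was Tspo2, an erythroid relative of the mitochondrial translocator protein, with 34 counts in Memo1-mutant and 138 in control members, a ratio of 0.376 (0.251 to 0.551). It had a UMI in 16.9% of Memo1-mutant and 27.0% of control members, and no single cell held more than 5.88% of its counts in either library. The other was Rhd, of the Rhesus complex, with 4 and 18 counts, a ratio of 0.339 (0.0836 to 1.03), and 61.1% of its control counts in 1 cell.

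Some enzymes of the red cell were among the strongest transcripts after haemoglobin. Bpgm had 1809 counts in Memo1-mutant and 2827 in control members, a ratio of 0.977 (0.921 to 1.04). Gpx1, a glutathione peroxidase, had 1639 and 1997 counts, a ratio of 1.25 (1.17 to 1.34). Prdx2, the red cell peroxiredoxin, had 989 and 1127 counts, a ratio of 1.34 (1.23 to 1.46). Both ratios were within 1.5-fold, and that of Prdx2 was the highest of the list. Over all genes the quartiles of the log2 ratio were -0.27 and 0.50. Cat and Sod1, the other antioxidant enzymes of the list, are not described here, so nothing is said of antioxidant genes as a group. Car2, a carbonic anhydrase, had 319 and 410 counts, and Car1, the other red cell carbonic anhydrase, had 0 in both. Of 10 measured members 0 were past 2-fold, and the median log2 ratio was 0.21.

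The erythroid list with the most counts was that of ubiquitin and organelle clearance, by which reticulocytes dispose of proteins and mitochondria. Its sum was 9266 counts, 4.95% of non-haemoglobin counts, in Memo1-mutant members and 12362 counts, 4.32%, in control members. Ubb, polyubiquitin B, led with 4039 and 5730 counts. Mkrn1, a ubiquitin ligase, had 1801 and 2062 counts, a ratio of 1.33 (1.25 to 1.42), and Ube2l6, a conjugating enzyme, 1009 and 1149, a ratio of 1.34 (1.23 to 1.46). Bnip3l, the receptor that marks mitochondria for removal, had 577 and 859 counts, a ratio of 1.03 (0.922 to 1.14). Map1lc3b and Gabarapl2, coat proteins of autophagosomes, had 358 and 472 counts in Memo1-mutant members and 503 and 617 in control members. Alox15, a lipoxygenase tied to mitochondrial breakdown in rabbit reticulocytes, had 0 counts in both. Of 15 measured members 0 were at least 2-fold higher and 1 was at least 2-fold lower, with a median log2 ratio of 0.12. That 1 was Tmcc2, with 10 counts in Memo1-mutant and 88 in control members, a ratio of 0.174 (0.0804 to 0.335), and 61.4% of its control counts lay in 1 cell.

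Genes of earlier stages were almost absent. Of the 14 erythroid transcription factors in the file 6 could be compared, and 0 were past 2-fold, with a median log2 ratio of 0.09. Lmo2, a bridging factor also used by endothelium, was highest with 42 counts in Memo1-mutant and 65 in control members. Tal1 had 0 and 1 counts and Nfe2 2 and 3. The progenitor list summed to 37 counts in Memo1-mutant and 58 in control members, with Kit at 6 and 3 and Myb at 0 in both. Genes of cell division gave 219 and 312 counts, a median of 0 per cell in both libraries, while cells of cluster 9 had a median of 1. Over the 6 erythroid lists, 4 of 51 measured genes were past 2-fold, all 4 lower in the Memo1-mutant library. Over all 2445 genes compared, 7.98% were at least 2-fold higher and 4.66% at least 2-fold lower. Such a small count is not read as a result about the erythroid genes.

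**Figure D3:**
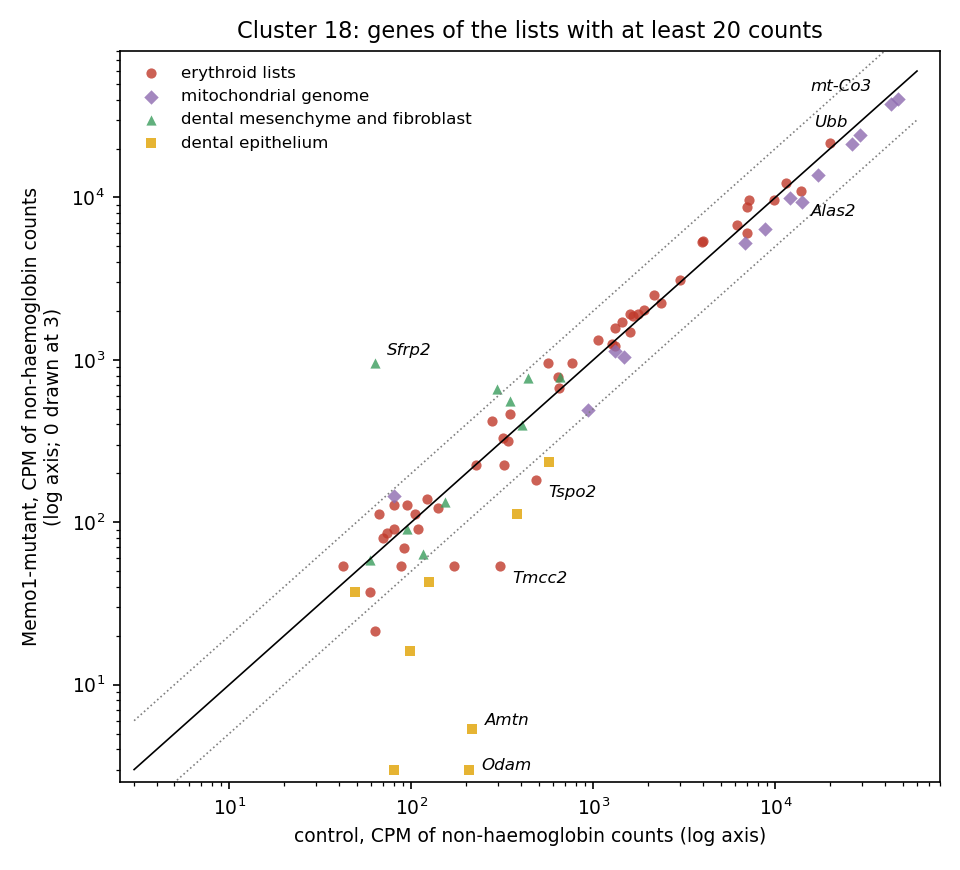
Memo1-mutant (y) against control (x) levels in cluster 18, in CPM of non-haemoglobin counts on logarithmic axes, for list genes with at least 20 counts over both libraries; the solid line marks equal levels and dotted lines 2-fold. The erythroid genes lie along the solid line apart from 4 lower in the mutant library, whereas 7 of 8 dental epithelium genes lie below the lower dotted line.

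Within the cluster the cells differed in how their beta transcripts divided between Hbb-bs and Hbb-bt. The ratio of Hbb-bt to Hbb-bs counts per cell had a median of 0.163 in Memo1-mutant members, with a range of 0 to 0.322, and a median of 0.159 in control members, with a range of 0.00185 to 0.338. The bins that follow, and the sum of 5 genes, were chosen after the values were seen. In 35 Memo1-mutant and 63 control members the ratio was 0.05 or less. These cells had medians of 2001 and 2813 haemoglobin UMIs, and the summed UMIs of Alas2, Bpgm, Ube2l6, Isg20 and Mkrn1 had medians of only 2 and 2 per cell. In the 54 Memo1-mutant and 73 control members with a ratio over 0.2, the haemoglobin medians were 11734.5 and 11930 and those of the 5 genes 66 and 69. So members with little Hbb-bt also had little haemoglobin and few other erythroid transcripts, in both libraries.

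Non-haemoglobin UMIs had medians of 469 in Memo1-mutant and 605 in control members at ratios of 0.05 or less, and of 818.5 and 879 over 0.2. Mitochondrial and ribosomal protein UMIs did not follow that order. Mitochondrial UMIs had medians of 143 in Memo1-mutant and 168 in control members at ratios of 0.05 or less, and of 106 and 159 over 0.2. Ribosomal protein UMIs had medians of 65 and 70 at the low end and 63.5 and 75 at the high end. Across cells, Spearman's rho of the beta ratio with the 5 genes was 0.76 over 172 Memo1-mutant cells and 0.79 over 259 control cells. The cells of a library share free RNA and sequencing, and in each cell all these counts share its depth, so rho is a description. With mitochondrial UMIs it was -0.06 in Memo1-mutant and 0.00 in control cells. Members with 5 or fewer UMIs of the 5 genes were 16.9% of Memo1-mutant and 23.2% of control members, and the cells of cluster 9 had a median of 0. Over the whole cluster the ratio of summed Hbb-bt to Hbb-bs counts was 0.175, against 0.136 in the remaining cells, in the Memo1-mutant library, and 0.168 against 0.123 in the control library. Among other clusters with at least 500 haemoglobin counts the ratio ran from 0.0142 to 0.208 in the Memo1-mutant library. In the control library it ran from 0.0144 to 0.202. It was below that of cluster 18 in 20 of 22 Memo1-mutant and 16 of 20 control clusters.

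**Figure D4:**
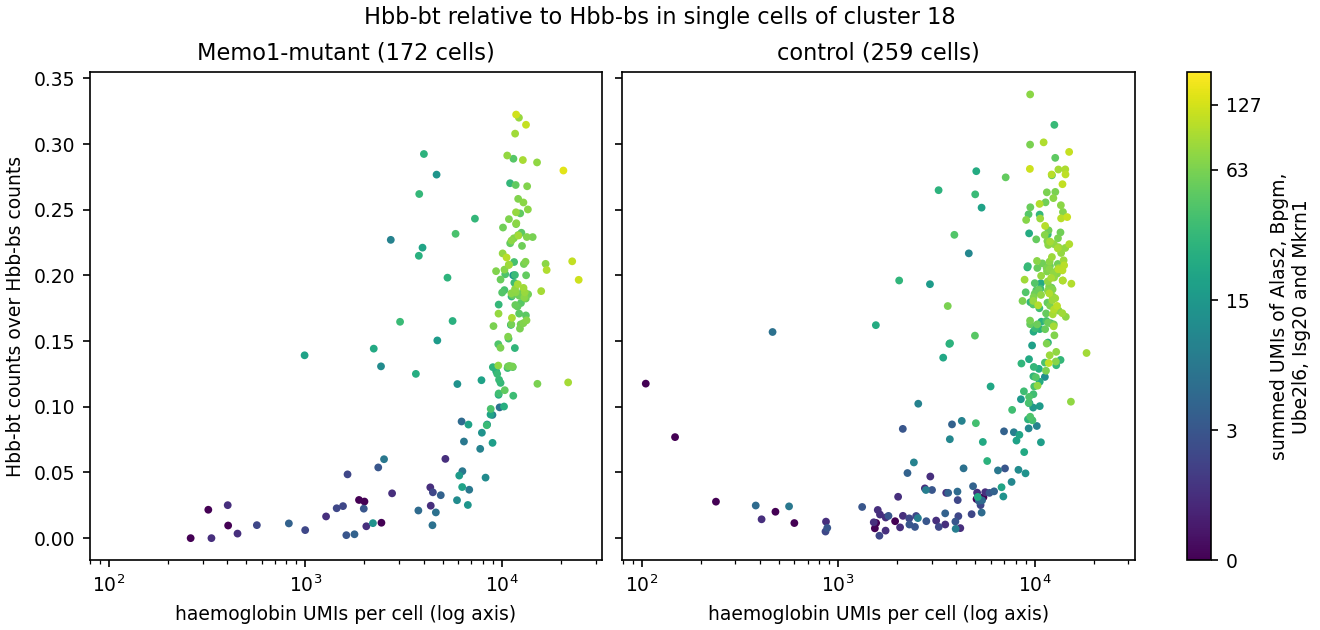
Ratio of Hbb-bt to Hbb-bs counts (y) against haemoglobin UMIs (x, logarithmic) for each cell of cluster 18, Memo1-mutant left and control right, coloured by the summed UMIs of 5 other erythroid genes. Cells at a ratio of 0.05 or less have medians of 2001 and 2813 haemoglobin UMIs and 2 and 2 UMIs of the 5 genes, those over 0.2 medians of 11734.5 and 11930 and of 66 and 69.

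Haemoglobin share also varied among the members. The share was at least 90% in 112 Memo1-mutant and 155 control members, between 50% and 90% in 54 and 91, and under 50% in 6 and 13. These ranges are not types: 18 Memo1-mutant and 24 control members lay within 1 percentage point of 90%, and 3 and 0 within 1 point of 50%. Alas2 had medians of 14 UMIs per cell in Memo1-mutant and 20 in control members of the top range, 3.5 and 5 in the middle range, and 0 and 4 in the lowest. Of the 15836 non-haemoglobin UMIs of the 6 Memo1-mutant members under 50%, 13559 came from 1 cell. Haemoglobin UMIs, which the ranges are drawn from, had medians of 11406.5 and 11321 per cell in the top range, 3793 and 3713 in the middle one and 368 and 480 in the lowest. Non-haemoglobin UMIs differed less, with medians of 684.5 and 712 UMIs in the top range and 777.5 and 821 in the middle one, and 460 and 879 in the lowest.

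Transcripts known from other cell types were counted in the members. Enamel matrix transcripts (Amelx, Ambn and Enam), made by ameloblasts, had a UMI in 99.4% of Memo1-mutant and 100% of control members. Their median was 7 UMIs per cell in Memo1-mutant and 9 in control members. In cluster 9 it was 5 and 8, and in cluster 8, with medians of 10870 and 12518 UMIs per cell, 11 and 15. The means in cluster 18 were 10.1 and 9.94 UMIs per cell. The summed counts per non-haemoglobin total had a ratio of 1.03 (0.967 to 1.09), beside 0.684 (0.683 to 0.685) in the remaining cells. These transcripts made 0.925% of the non-haemoglobin counts in Memo1-mutant and 0.90% in control members, beside 0.0969% and 0.118% in cluster 8. For 100 Amelx counts there were 11.4 (9.63 to 13.4) Ambn counts in Memo1-mutant members and 20.6 (18.5 to 22.9) in control members, beside 12.5 and 17.9 in cluster 9. In the cells that the depositors called ameloblast lineage the numbers were 8.50 and 11.4. A single Memo1-mutant member held 278 enamel matrix UMIs, 16.0% of the cluster's in that library, and another held 144. The Memo1-mutant mean and sum, and so the ratio of 1.03, lean on such members, whereas the medians do not. No member was called ameloblast lineage.

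Malat1, a nuclear RNA chosen here after values had been seen, was as scarce. It had a median of 6 UMIs in Memo1-mutant and 5 in control members, against 5 and 5 in cluster 9 and 352.5 and 355 in cluster 8. The 95th percentile was 191 Malat1 UMIs in Memo1-mutant and 14 in control members, and 100.4 and 26 in cluster 9. Whether members hold a nucleus was not tested.

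**Figure D5:**
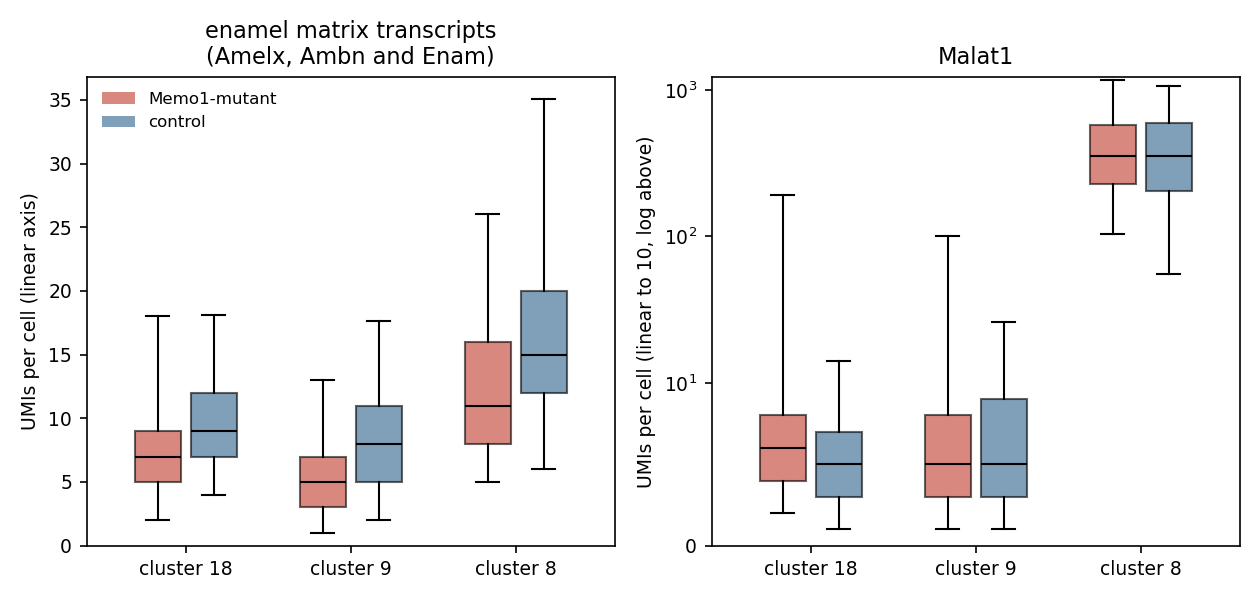
UMIs per cell of the enamel matrix transcripts (left, linear axis) and Malat1 (right, linear to 10 and logarithmic above) in clusters 18, 9 and 8, Memo1-mutant left of control; boxes show median and quartiles, whiskers the 5th and 95th percentiles of cells. Enamel matrix medians in cluster 18 (7 and 9) lie near those of cluster 9 (5 and 8), and the Malat1 medians of both clusters lie at 5 or 6, far below 352.5 and 355 in cluster 8.

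A few members held much of the other RNA. In each library 11 members had at least 1000 genes, and they held 37.1% of the non-haemoglobin UMIs of Memo1-mutant and 30.2% of those of control members. Their haemoglobin share had a median of 57.9% in Memo1-mutant and 63.5% in control members, and their total a median of 15427 and 15259 UMIs. They carried 34.2% of the dental mesenchyme counts of the Memo1-mutant cluster and 33.5% of those of the control cluster. For dental epithelium the shares were 39.6% and 46.4%, and for immediate early genes 34.4% and 50.3%. They were far smaller for macrophage genes, 4.65% and 2.47%, and for endothelium genes, 5.08% and 5.45%. The endothelium shares were only 3 of 59 counts in Memo1-mutant and 3 of 55 in control members. Pericyte and smooth muscle genes had shares of 15% and 32.4%, and cell division genes 43.4% and 36.2%. The mesenchyme shares were near the 37.1% and 30.2% of all non-haemoglobin UMIs. Doublets, droplets with 2 cells, were not called, and whether these members are doublets was not tested. Without them the haemoglobin share of the cluster was 92.5% in Memo1-mutant and 91.3% in control members.

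Between the libraries, 195 of 2445 genes were at least 2-fold higher and 114 at least 2-fold lower in Memo1-mutant members, the 7.98% and 4.66% given above. Without the many-gene members 95 and 55 of 1244 genes were past 2-fold, and with factors from edgeR's TMM there were 108 higher and 187 lower, so that 36.6% of the calls were higher, against 63.1%. That scaling moved the median log2 ratio of all genes to -0.12, against 0.08, and the medians of haem synthesis and of iron genes to -0.11, of transcription factors to -0.12, of enzymes to 0.01, of organelle clearance to -0.08, of membrane genes to -0.35 and of dental mesenchyme genes to -0.08. Such a scaling moves all non-haemoglobin genes alike, so the lists kept their distance from the median of all genes. The genes that follow are those whose interval lies farthest from 1.

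Sfrp2, a secreted Wnt regulator of mesenchyme, led the genes that were higher in the Memo1-mutant library. It had 179 counts in Memo1-mutant and 18 in control members, a ratio of 15.2 (9.34 to 26.2), and a UMI in 25% and 4.63% of cells. In the remaining cells of the libraries it was also higher, at a ratio of 6.08 (5.97 to 6.18), and in cluster 9 it had a UMI in 13.5% and 2.29% of cells. The others, in order, were Smoc2, Kctd12, Rcn3, Mfap4, Gm26917, Ncam1, Trpm7, Igfbp7 and Col3a1, with ratios of 2.23 to 3.65. Outside the cluster 7 of these 9 had ratios of 1.29 to 2.28, while Gm26917 was at 1.04 and Trpm7 at 0.984. Of Gm26917's Memo1-mutant counts 70.1% lay in 1 cell, and without the 5% of cells with the most UMIs its ratio was 0.891. Kctd12 was at 1.48 when the CPM of single cells was averaged, and Trpm7 at 1.70 without the many-gene members. Smoc2, Mfap4, Ncam1 and Rcn3 reached 13.6, 8.48, 9.43 and 6.22, all without the many-gene members except Ncam1, whose value is without the 5% of cells with the most UMIs. The list of dental mesenchyme and fibroblast genes summed to 856 counts in Memo1-mutant and 759 in control members, a ratio of 1.72 (1.56 to 1.90), beside 1.55 (1.54 to 1.55) in the remaining cells. Of its 10 measured members 2, Sfrp2 and Col3a1, were at least 2-fold higher and 0 lower, beside 7.98% and 4.66% of all genes compared. With TMM and median-of-ratios factors Col3a1 was under 2-fold, at 1.94 and 1.90. The median log2 ratio of the 10 was 0.12, beside 0.08 over all genes. Col1a1, type I collagen, had a UMI in 48.8% of Memo1-mutant and 36.7% of control members, and Lum, a matrix proteoglycan, was at 0.974 (0.718 to 1.32).

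Transcripts of dental epithelium were lower in the Memo1-mutant library. Odam, a protein that maturing ameloblasts lay on enamel, had 0 counts in Memo1-mutant and 59 in control members, which is at least 12.9-fold lower against a floor of 3 counts for the mutant cluster. Amtn, a partner of Odam, had 1 and 62 counts, a ratio of 0.0246 (0.000614 to 0.142), and a UMI in 0.581% of Memo1-mutant and 14.7% of control members. Krt5, a keratin of basal epithelium, had 21 and 109 counts, a ratio of 0.294 (0.175 to 0.473), and Krt17 29 and 145, a ratio of 0.305 (0.198 to 0.458), with 34.9% and 45.5% of their control counts in 1 member each. In the remaining cells the same genes were lower too, Odam at 0.00883, Amtn at 0.0827, Krt5 at 0.382 and Krt17 at 0.361. The list summed to 91 counts in Memo1-mutant and 528 in control members, a ratio of 0.263 (0.208 to 0.329), beside 0.300 (0.298 to 0.302) in the remaining cells. Of 8 measured members 7 were at least 2-fold lower, beside 4.66% of all genes compared. Their median log2 ratio was -1.66 over the 6 with counts in both libraries and -2.05 with the others at the floor. Without the many-gene members the median was -0.51, Krt5 was at 0.689 and Krt17 at 0.879.

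The other genes of the lower group compared in different ways with the remaining cells. Gm10709, with 0 counts in Memo1-mutant and 62 in control members, at least 13.5-fold lower, and Gm8797, with 22 and 226, a ratio of 0.149 (0.0914 to 0.231), were also lower in the remaining cells, at 0.00392 and 0.1501. Bglap, osteocalcin of bone and dentine, had 7 and 52 counts, a ratio of 0.206 (0.0788 to 0.454), but it was at 1.88 in the remaining cells, and 76.9% of its control counts lay in 1 member. S100a6, a calcium-binding protein, had 29 and 130 counts, a ratio of 0.341 (0.220 to 0.513), beside 0.981 in the remaining cells, with 73.1% of its control counts in 1 member. Ppp1r15a, a stress-response phosphatase subunit, had 12 and 66 counts, a ratio of 0.278 (0.137 to 0.518), beside 1.27, with 40.9% in 1 member. Without the 5% of cells with the most UMIs S100a6 was higher, at 1.67.

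Mitochondrial transcripts were lower in sum in Memo1-mutant members. The 13 genes summed to 31997 counts in Memo1-mutant and 59669 in control members, a ratio of 0.819 (0.808 to 0.830), beside 0.921 in the remaining cells. mt-Co3, a subunit of cytochrome oxidase, was at 0.854 (0.830 to 0.879), mt-Nd2 at 0.667 (0.631 to 0.706) and mt-Atp8 at 0.526 (0.411 to 0.669). Under the scaling used here 0 of 13 were past 2-fold, but mt-Atp8 lay near that limit, so the count depends on the scaling. Among them mt-Nd6 had the highest ratio, 1.79 (0.990 to 3.27), with 27 counts in Memo1-mutant and 23 in control members. The median log2 ratio was -0.29 and went down to -0.53 under other scalings.

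Haemoglobin was also counted outside the cluster. The remaining Memo1-mutant cells held 232587 haemoglobin counts, 13.1% of the library's, and the remaining control cells 209510, 8.67%. In CPM of all counts this was 1952 in Memo1-mutant and 2720 in control cells. The counts sat in few cells: 40 Memo1-mutant and 35 control cells with a share of at least 10% held 90.6% and 89.1% of them. The median cell of the other 28 clusters held 0 to 5 haemoglobin UMIs in the Memo1-mutant and 1 to 5 in the control library. A share of at least 50% was reached by 5 Memo1-mutant and 8 control cells outside cluster 18. Of the 5, 3 lay in cluster 11 and held 190, 196 and 245 UMIs of cell division genes, while the other 2 held 24 and 4 and the 8 control cells 1 to 6. The 3 cells had 9, 17 and 41 Alas2 UMIs, the other 2 Memo1-mutant cells 18 and 0, and the 8 control cells 0 to 36, and whether the 3 are erythroid precursors or doublets was not tested.

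The mice differed in sex-linked transcripts, so genotype and sex cannot be told apart. Xist, from the inactive X chromosome of females, had 224 counts in Memo1-mutant and 0 in control members, and Ddx3y, from the Y chromosome, 0 and 20. Memo1 (chr17:74199036-74295521, minus strand) had 27 counts in Memo1-mutant and 26 in control members, a ratio of 1.59 (0.891 to 2.83), beside 0.918 in the remaining cells. Which part of Memo1 is deleted is not given in the sources used here, so the counts do not check the deletion. The libraries held 120862385 UMIs in 13820 Memo1-mutant cells and 79518656 UMIs in 9708 control cells.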

How the data were processed

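Single-cell RNA libraries of 1 Memo1-mutant and 1 control incisor were compared. Per the submitters' processing notes, the authors used Cell Ranger, Seurat 3 and mm10; the version of Cell Ranger is not given in the sources used here. The deposited values are whole-number UMI counts of 19626 genes in 23528 cells, with the authors' cluster numbers. Counts were summed per library over cluster 18. Non-haemoglobin genes were scaled to the non-haemoglobin total and haemoglobin genes to all counts, and ratios of Memo1-mutant to control have exact conditional intervals of 2 Poisson counts, shares Clopper-Pearson intervals (95%). Genes needed 20 counts over both libraries to be compared. A fold for a gene at 0 counts in 1 library was taken against a floor of 3 counts.

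Named genes are members of the erythroid lists, the 20 leading genes (at least 50 CPM, fold after adding 10 CPM), and the 10 genes each way whose interval lay farthest from 1 (50 CPM, 50 counts; haemoglobin, mitochondrial, ribosomal, Xist and Y-linked genes not ranked), with up to 4 of each other list. The cell set, 25 gene lists and rules were chosen with earlier results of these data known. Fam46c stands for Tent5c. The intervals were tested on simulated Poisson counts, the model that they assume. Counts gathered in single cells, as for Bglap, were not part of that simulation, so it says nothing of them. Alternatives used edgeR 4.0.16 and DESeq2 1.42.0 in R 4.3.3 for scaling factors only; all else ran in Python 3.11.15 (scipy 1.17.1, numpy 2.4.6, matplotlib 3.10.9, pandas 2.3.3). Doublets were not called. Promoters came from RefSeq and positions from GENCODE M21. Intervals cover counting error only. A few listed genes are not reported here.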

Additional observations from a re-analysis of the deposited data

How the results depend on the processing

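No paired analysis was possible because each group is 1 library and the labels carry no replicate numbers. With 1 mouse per group the spread between mice is unknown, and depth limits genes under 20 counts. The haemoglobin share of Memo1-mutant and control members (89.2% and 88.5%) was 89.3% and 88.6% for cells with at least 1000 UMIs, 90.1% and 90.4% when the 5% richest in UMIs were dropped, 86.5% and 85.9% as the mean over cells, and 92.5% and 91.3% without cells with at least 1000 genes, an alternative chosen after seeing the data. The cluster was 1.53% of Memo1-mutant and 3.66% of control cells with at least 1000 UMIs. Haemoglobin outside it was at 1562 and 2022 CPM without cells of at least 50% haemoglobin and at 1275 and 2259 CPM with cells thinned to 1000 UMIs.

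Genes at least 2-fold higher and lower (195 and 114) numbered 108 and 187 with TMM factors, 107 and 192 with median-of-ratios factors, 3268 and 2613 among genes with 1 count, 30 and 28 among genes with 50 counts, and 95 and 55 without cells with at least 1000 genes. Scaling with those factors moved the median log2 ratio of all genes from 0.08 to -0.12 (TMM) and -0.15 (median-of-ratios), and the share of calls that were higher from 63.1% to 36.6% and 35.8%; with all counts in the total that share was 54.2%. With the mean of per-cell CPM 226 genes were lower and 8 erythroid list genes past 2-fold, against 4, and 22 of 88 were with 1 count. Lower genes numbered 49 for cells of at least 50% haemoglobin and 61 when the richest 5% were dropped. In that case S100a6 was at 1.67 and Gm26917 at 0.891, the opposite direction, and S100a6 was at 1.37 for cells of at least 50% haemoglobin; the cause was not tested.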

Other observations

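Theta globin genes, distant relatives of the alpha chain, were counted at a trace in the cluster. Hbq1a had 22 counts in 18 Memo1-mutant members and 38 counts in 34 control members. Hbq1b had 13 counts in 13 Memo1-mutant members and 44 in 37 control members, a ratio of 0.427 (0.211 to 0.806) in CPM of all counts. Of all counts of the libraries, those of Hbq1a in the cluster were 22 of 25 in the Memo1-mutant and 38 of 44 in the control library, and those of Hbq1b 13 of 29 and 44 of 50.

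Transcripts known from other blood cells and from macrophages were also counted in the members, and which cells they came from was not tested. Platelet genes summed to 47 counts in Memo1-mutant and 27 in control members, a ratio of 2.66 (1.62 to 4.44), beside 1.51 in the remaining cells. Pf4, a platelet chemokine, gave 39 and 21 of them and a UMI in 13.4% of Memo1-mutant and 5.79% of control members. Of the 11 platelet genes in the file, 1, Pf4, reached 20 counts and 4 had 0 in both libraries. The ratio of the sum is thus mostly that of 1 gene. Neutrophil genes summed to 34 and 23 counts, lymphocyte genes to 5 and 3, and mast cell genes to 2 and 0. Macrophage genes summed to 344 counts in Memo1-mutant and 445 in control members, a ratio of 1.18 (1.02 to 1.36). A single cell held 27.6% of the Memo1-mutant counts. Of 9 measured macrophage genes 2 were at least 2-fold higher and 0 lower, beside 7.98% and 4.66% of all 2445 genes compared. So small a count is not read as a result about macrophage genes. Genes of the macrophages that nurse erythroid precursors in marrow summed to 22 and 38 counts, with Vcam1 at 6 and 8 and Cd163 at 0 in both, and 0 of the 10 reached 20 counts. Junb, an immediate early gene, was the member of its list farthest below 1, at 0.389 (0.269 to 0.551), with 41.6% of its control counts in 1 member.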
